A study of Rattus norvegicus with 3 samples.

Results

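The axon guidance genes described here are 48 ligands, receptors and a growth cone protein, chosen by name from the ephrin, semaphorin, Slit and netrin systems, and all 48 were found among the 18425 genes of the deposited table. Their RNA was measured in retinas of wild-type Sprague Dawley rats at postnatal day 4 (P4), in 1 library per condition. At P1 the rats had received an intravitreal injection of 1 µl of citrate buffer (pH 4.5), of saline, or of 10 µg of streptozotocin (STZ), an alkylating analog of N-acetyl glucosamine that was prepared in the citrate buffer and then diluted. The buffer library is thus the control for the solution of STZ, and saline is a further injected control. All 3 groups share genotype, strain, route, volume and ages. For its tests of function and morphology the study gave STZ to right eyes and buffer to left eyes of the same rats. Whether the sequenced STZ and buffer retinas also came from the same animals, and saline from others, is not given in the sources used here. How many retinas or animals went into a library is not given in the sources used here, and the libraries hold whole retina, so that fewer cells of a type and less RNA per cell cannot be told apart. With 1 library per condition there is no spread between animals, no difference has a replicate check, and no p-value was computed.

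Guidance molecules steer growing axons by attraction or repulsion, and the same proteins shape dendrites, cell layers and vessels. Ephrins are bound to the cell surface and signal to Eph receptors on a neighboring cell. In the retina, graded EphA and EphB receptors and graded ephrins give ganglion cell axons their position along the nasal-temporal and dorsal-ventral axes. Semaphorins act through plexins, with neuropilins as co-receptors for the secreted class 3 members. Slits repel through Robo receptors. Netrin attracts through Dcc and repels through Unc5 receptors.

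The unit of level is the FPKM (read fragments scaled to transcript length and to library size), which corrects for gene length, so levels can be compared between genes. The fold change of a gene is (FPKM + 1)/(FPKM + 1), and a gene is called higher above 1.54 and lower below 0.65, the rule in the methods of the study for STZ against buffer, applied here to the other comparisons too. For the count ratio, the share of counts that a gene takes in a library is divided by its share in another, with an exact Clopper-Pearson 95% interval. That interval covers counting error only, since 1 library per condition gives no spread between animals. It scales by library totals alone. A bound close to 1, as for Epha7 and Plxna4 in STZ against buffer, can therefore depend on that scaling. No molecular identifiers separate copies of a molecule, so copied reads may leave the interval too narrow. The libraries held 21992702 (buffer), 21977843 (saline) and 22031249 (STZ) estimated counts, and the 48 genes held 0.430% of them after buffer, 0.443% after saline and 0.391% after STZ. The median level of the 48 genes was 11.9 FPKM after buffer, 13.3 after saline and 10.5 after STZ, beside 7.37, 7.57 and 7.74 over all genes.

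Levels among the guidance genes spanned more than 2 orders of magnitude. The semaphorin 4 receptor gene Plxnb2 was the most abundant after buffer at 75.6 FPKM, followed by the ephrin-B receptor gene Ephb2 at 75.2, the growth cone phosphoprotein gene Gap43 at 70.7 and the second plexin-B gene Plxnb1 at 67.4. Plxnb2 also led after saline, with 78.2 FPKM, while after STZ Gap43 led with 78.5. At the other end stood Epha6 with 0.18 FPKM and Ntn1, the gene of netrin-1, with 0.29. Ntn1 had 11 reads after buffer, 7 after saline and 5 after STZ, so its count ratio of STZ against buffer, 0.454, had an interval of 0.124 to 1.42, and no change of Ntn1 was detectable at this depth. The plot of levels shows that for most genes the 3 libraries lie close together compared with the distances between genes.

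**Figure D1:**
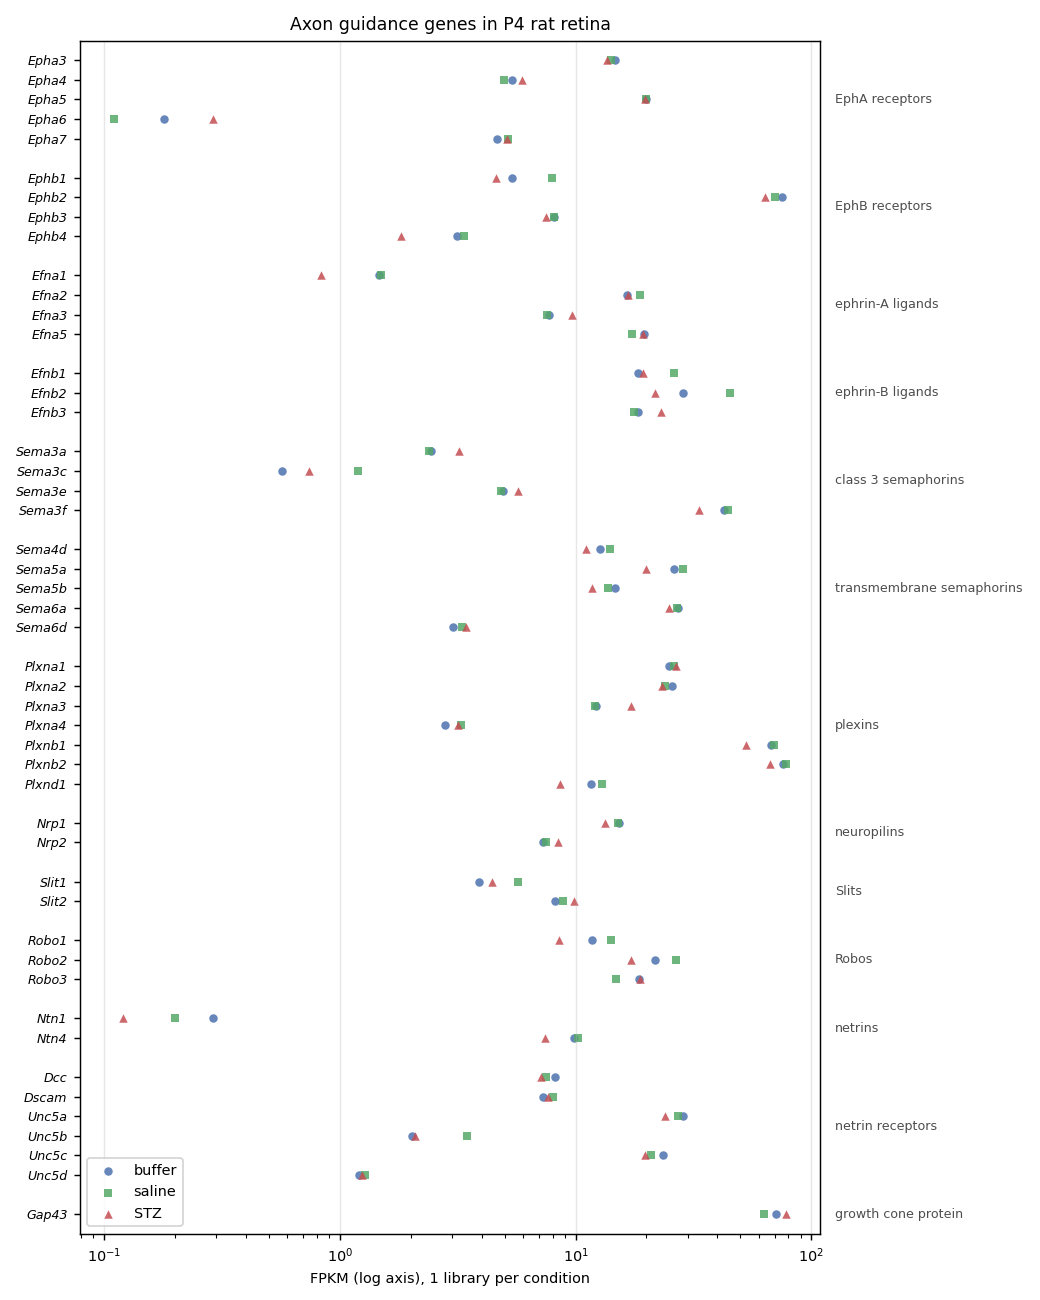
FPKM of each of the 48 guidance genes (log axis) in the buffer (circle), saline (square) and STZ (triangle) library, 1 point per library, grouped by protein family. Plxnb2, Ephb2, Gap43 and Plxnb1 lie furthest right, Epha6 and Ntn1 furthest left, and Efnb2 shows a saline point right of the other libraries.

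In STZ against buffer, 0 of the 48 genes were called higher, where 2.25% of all genes were, and 0 were called lower, where 1.04% were. Against saline, 0 were called higher (2.04% of all genes) and 4 were called lower, which is 8.33% of the members beside 1.75% of all genes. The 4 genes were Efnb2, Ephb1, Ephb4 and Robo1. Between the controls, Efnb2 alone was called higher in saline than in buffer (1.00% of all genes) and 0 were called lower (0.429%). Against both controls at once, 0 members were called in either direction, where 1.39% of all genes were called higher and 0.630% lower. STZ against saline and saline against buffer share the saline library, so a gene with a high saline value appears in both.

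Smaller differences were frequent. The median log2 fold of the 48 genes was -0.06 in STZ against buffer and -0.10 against saline, beside 0.02 and 0.00 over all genes, and it was 0.04 in saline against buffer beside 0.01. Folds between 0.8 and 1.25 were found for 37 of the 48 (77.1%) in STZ against buffer, for 31 (64.6%) against saline and for 42 (87.5%) in saline against buffer, while over all genes the shares were 86.5%, 83.5% and 94.1%. By the counting intervals, 19 of the 48 lay below 1 against both controls, 8 lay above 1 against both, and 21 did neither. Narrow intervals come with many reads, so the background was taken over genes that averaged 500 or more counts per library. Of the 35 members at that depth, 16 were lower (45.7%, where 21.2% of 8196 genes were) and 7 were higher (20.0%, where 23.3% were). These counts share the STZ library between both comparisons and compare libraries, not conditions. At 500 or more counts, folds between 0.8 and 1.25 in STZ against buffer were found for 77.1% of members, beside 90.7% of all genes. Against saline these shares were 65.7% and 86.5%, and in saline against buffer 91.4% and 98.2%. By the fold rule, 27 receptors held 3 of the calls against saline and 20 ligands held 1.

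**Figure D2:**
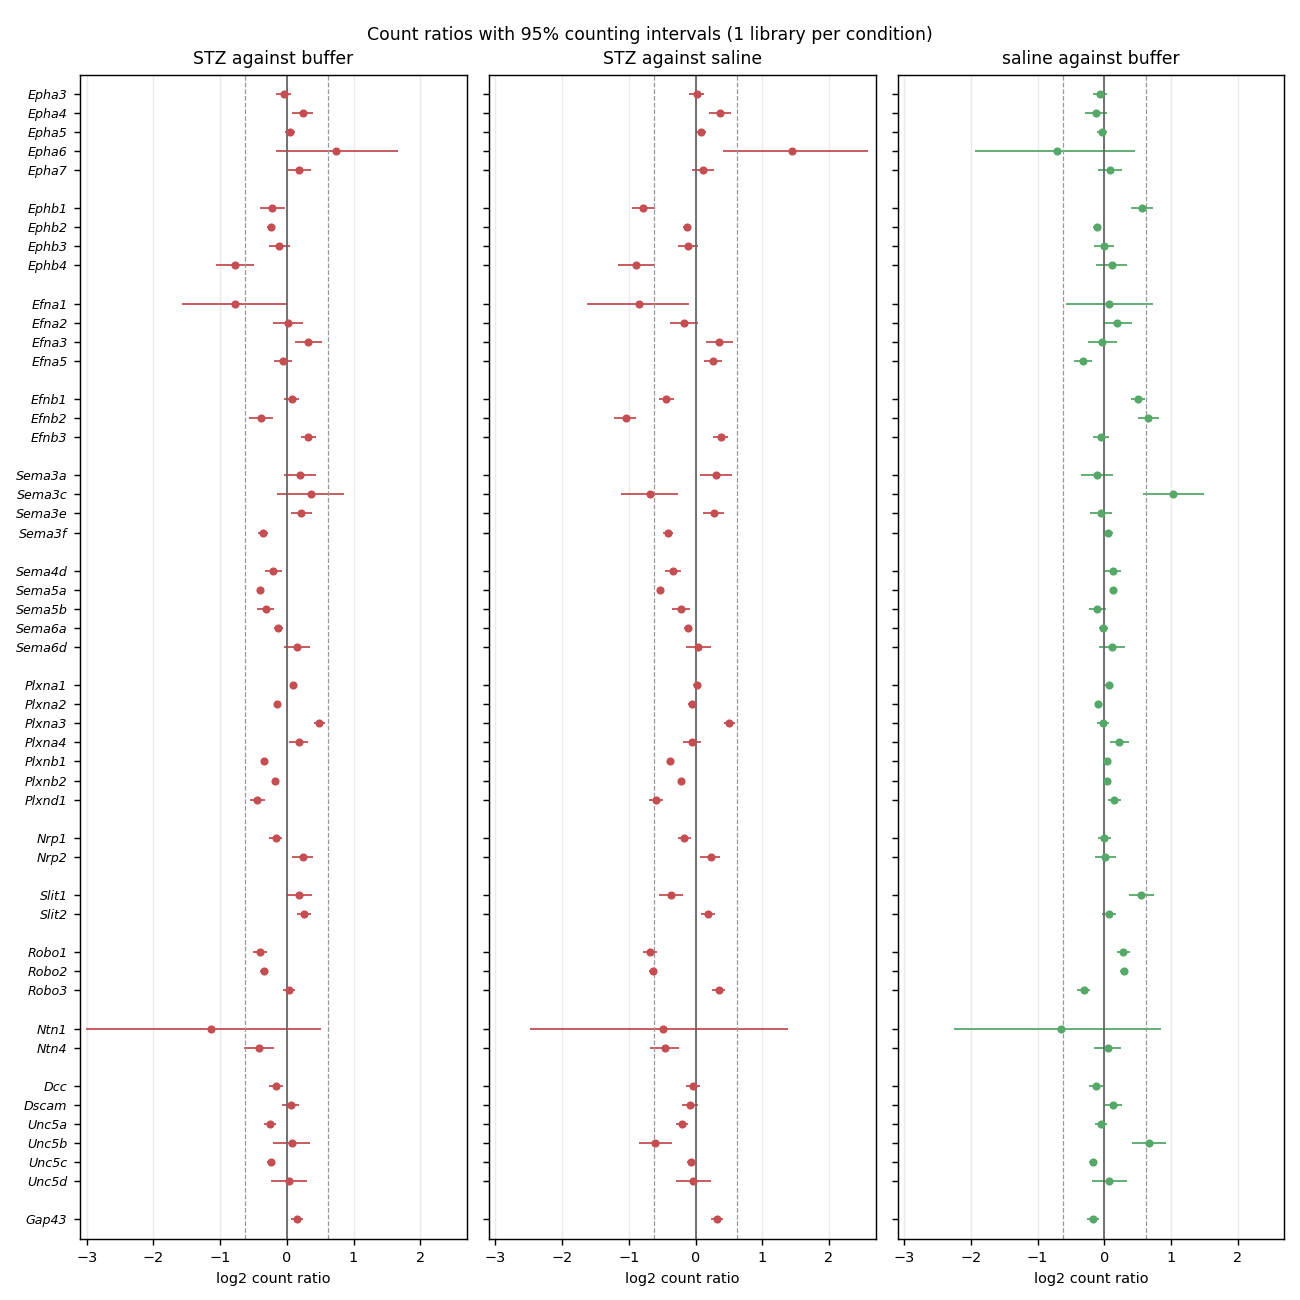
Log2 count ratio of each of the 48 guidance genes for STZ relative to buffer, STZ relative to saline and saline relative to buffer. Bars are exact 95% counting intervals, the solid line marks equality, and the dashed lines mark 0.65 and 1.54. Calls use the fold of FPKM + 1, so a count ratio past a dashed line is not by itself a call. Ephb4 and Efna1 lie left of the lower dashed line in both STZ panels. Efnb2, Sema3c and Unc5b lie right of the upper dashed line in the saline panel.

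Efnb2 encodes ephrin-B2, a ligand of EphB receptors that is found in dorsal retina and on arterial endothelium. It had 582 reads after buffer, 920 after saline and 445 after STZ, and 28.6, 45.2 and 21.8 FPKM. The saline library was the highest and the STZ library the lowest. Its fold was 0.493 against saline, the largest change among the members, 0.771 against buffer, and 1.56 in saline against buffer. The count ratios were 0.483 (0.430 to 0.541), 0.763 (0.673 to 0.865) and 1.58 (1.42 to 1.76) in that order. Ephb1 encodes an ephrin-B receptor that ganglion cell axons of the ventrotemporal retina use to stay uncrossed at the chiasm. Its counts were 524, 775 and 452 after buffer, saline and STZ. Here too saline stood above the other libraries, with folds of 0.626 against saline, 0.878 against buffer and 1.40 in saline against buffer. Robo1, a Slit receptor gene, had 1685, 2047 and 1277 reads in the same order. Its folds were 0.629 against saline and 0.748 against buffer.

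Ephb4 differed from these 3 genes in that the controls were close. EphB4 is the ephrin-B2 receptor of venous endothelium. The gene had 286 reads after buffer, 308 after saline and 167 after STZ, or 3.13, 3.37 and 1.82 FPKM. Both controls lay above STZ, and the saline to buffer ratio was 1.08 (0.914 to 1.27). The count ratio was 0.583 against buffer (0.479 to 0.708) and 0.541 against saline (0.445 to 0.655). The fold was 0.645 against saline, just inside the threshold, and 0.683 against buffer, just outside it. Since the added 1 FPKM is large beside a level of 3 FPKM, the fold understates this change: with a pseudocount of 0.1, or with CPM or TPM, Ephb4 was called lower against both controls.

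For these 4 genes the 250 bases before the annotated transcript start are shown, because they are the only members past the threshold in any comparison. They come from the RefSeq promoter table of the build GRCr8, in which 34 of the 48 members matched by gene identifier, with 35 windows. The reads were mapped to the build rn6, so the coordinates do not belong to the expression files. Capitals mark matches on either strand to any of the T-box core GGTGTGA, the RBPJ site TGGGAA, the E-box CAGCTG and the p53 decamer, the 10-letter unit of p53 response elements. Efnb2 lies on chr16:87484965-87485214 (plus strand), Ephb1 on chr8:111823760-111824009 (minus), Ephb4 on chr12:24988389-24988638 (minus) and the downstream start of Robo1 on chr11:24714445-24714694 (plus).
Efnb2: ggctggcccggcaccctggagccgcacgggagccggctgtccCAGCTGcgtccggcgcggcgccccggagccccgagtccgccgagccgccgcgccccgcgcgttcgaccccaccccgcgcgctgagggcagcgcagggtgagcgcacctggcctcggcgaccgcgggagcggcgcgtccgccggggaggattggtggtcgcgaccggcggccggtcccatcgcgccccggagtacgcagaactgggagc
Ephb1: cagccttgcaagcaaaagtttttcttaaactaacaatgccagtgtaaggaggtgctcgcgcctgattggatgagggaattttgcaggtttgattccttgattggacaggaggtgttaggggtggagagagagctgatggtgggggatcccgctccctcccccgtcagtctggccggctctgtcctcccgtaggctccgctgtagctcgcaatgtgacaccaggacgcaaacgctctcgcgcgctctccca
Ephb4: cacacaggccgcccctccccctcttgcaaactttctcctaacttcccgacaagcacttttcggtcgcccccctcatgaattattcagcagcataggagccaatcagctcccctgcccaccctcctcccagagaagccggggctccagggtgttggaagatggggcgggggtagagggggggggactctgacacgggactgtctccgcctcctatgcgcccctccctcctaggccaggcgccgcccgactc
Robo1: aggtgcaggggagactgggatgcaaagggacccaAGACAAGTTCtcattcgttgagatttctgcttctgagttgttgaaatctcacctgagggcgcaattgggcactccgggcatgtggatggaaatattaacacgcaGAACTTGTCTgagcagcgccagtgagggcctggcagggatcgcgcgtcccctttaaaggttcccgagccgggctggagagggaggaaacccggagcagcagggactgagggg
The Efnb2 window had 80.4% G and C and 43 CpG sites, beside medians of 51.2% and 5 over 33469 windows, and it held 1 E-box, 208 bases before the start. Robo1 had 2 matches to the p53 decamer, at 216 and 112 bases before the downstream start, and no match in the window of its upstream start. Ephb1 and Ephb4 had no match to any of the 4 motifs. Of all 33469 windows, 4007 held the E-box, 6.64% held the p53 decamer, 22.1% the RBPJ site and 3.22% the T-box core, and of the 35 member windows 7, 2, 6 and 0 did. A match describes the letters only.

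The other genes of the ephrin-B system were mixed. Ephb2 and Ephb3 encode the receptors that are high in ventral retina. Ephb2 had 75.2 FPKM after buffer, 70.0 after saline and 63.8 after STZ, a count ratio of 0.849 against buffer (0.813 to 0.887) and 0.913 against saline (0.873 to 0.954). Its estimated counts are fractional. Ephb3 had 718, 717 and 665 reads, and its interval against buffer, 0.831 to 1.03, included 1. Efnb1, the second dorsal ephrin-B gene, had 1220 reads after buffer, 1734 after saline and 1285 after STZ. Like Efnb2 it was highest after saline, with a fold of 1.40 against buffer, but STZ and buffer differed by less than the counting error (1.05, 0.971 to 1.14). Efnb3, by contrast, had its highest value after STZ, with 1165, 1122 and 1459 reads and count ratios of 1.25 against buffer (1.16 to 1.35) and 1.30 against saline (1.20 to 1.40).

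EphA receptors and ephrin-A ligands, which set the nasal-temporal order of ganglion cell axons, had folds between 0.735 and 1.24 against either control. The added 1 FPKM narrows this range for the weakly expressed members, and the count ratios ran from 0.557 (Efna1 against saline) to 2.72 (Epha6 against saline). Epha5 was the most abundant of the 5 receptors, with 20.0, 19.9 and 19.7 FPKM after buffer, saline and STZ and folds of 0.988 and 0.993 against the controls. Epha3 followed with 14.7, 14.2 and 13.6 FPKM. Epha4 had 648, 593 and 765 reads, a count ratio of 1.18 against buffer (1.06 to 1.31), and it was the member of this family whose intervals lay above 1 against both controls. Epha7 had 517, 547 and 592 reads, and its interval lay above 1 against buffer (1.01 to 1.29) but included 1 against saline (0.960 to 1.21). Epha6 had only 18, 11 and 30 reads. Its interval included 1 against buffer (0.898 to 3.17) and lay above 1 against saline (1.33 to 6.02).

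Of the ephrin-A genes, Efna5 and Efna2, whose products form gradients in the visual target as well as in the retina, led with 19.5 and 16.5 FPKM after buffer. Efna5 had 1016 reads after buffer, 811 after saline and 978 after STZ, so here saline was the lowest library. Efna2 had 342, 391 and 347 reads, and its 3 intervals included 1. Efna3 was higher after STZ, with 360, 353 and 451 reads and count ratios of 1.25 (1.09 to 1.44) and 1.27 (1.11 to 1.47) against buffer and saline. Efna1, a ligand known from endothelium, was lower, with 41, 43 and 24 reads and a ratio of 0.584 against buffer whose interval, 0.338 to 0.990, was wide. With a pseudocount of 0.1, Efna1 was called lower against both controls.

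Among the class 3 semaphorins, Sema3f was the most abundant. Its secreted product repels axons through neuropilin-2 and plexin-A3 and is known to limit vessels under the retina. It had 3218, 3329 and 2509 reads after buffer, saline and STZ, and STZ lay below both controls, with folds of 0.790 and 0.759. Sema3e, the plexin-D1 ligand, was slightly higher after STZ, with 614, 592 and 716 reads and a ratio of 1.16 against buffer (1.04 to 1.30). Sema3a, the neuropilin-1 ligand that collapses growth cones, had 291, 269 and 334 reads. Its interval included 1 against buffer (0.976 to 1.35) and lay above 1 against saline (1.05 to 1.46). Sema3c had 61, 125 and 78 reads, so that saline held 2.05 times the buffer share (1.50 to 2.83), while STZ did not differ from buffer beyond counting error (0.901 to 1.81) and lay below saline (0.463 to 0.833).

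The transmembrane semaphorins leaned to lower values after STZ. Sema5a and Sema5b, which keep inner retinal neurites within the inner plexiform layer, had 5901 and 1037 reads after buffer, 6456 and 964 after saline, and 4489 and 833 after STZ. For Sema5a the folds were 0.768 against buffer and 0.704 against saline, and for Sema5b 0.814 and 0.871. Sema4d, a plexin-B1 ligand, had 1066, 1170 and 928 reads and folds of 0.879 and 0.805. Sema6a, which with plexin-A4 and plexin-A2 organizes layers of the inner plexiform layer, had 27.2, 26.9 and 25.0 FPKM, a smaller difference. Sema6d had 422, 456 and 470 reads, with an interval of 0.973 to 1.27 against buffer.

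Plexins, the semaphorin receptors, moved in different directions. Plxnb1 had 67.4 FPKM after buffer, 69.5 after saline and 53.1 after STZ, with count ratios of 0.787 (0.767 to 0.809) and 0.764 (0.744 to 0.785); its counts are fractional. Plxnb2 was nearer to 1, at 0.887 (0.862 to 0.913) and 0.858 (0.834 to 0.882). Plxnd1, the Sema3e receptor of endothelial cells and some neurons, had 1680, 1868 and 1241 reads and folds of 0.758 and 0.687. Plxna3 showed the largest fold above 1 in STZ against either control. It had 1934, 1912 and 2721 reads after buffer, saline and STZ, controls that were within counting error of each other (0.989, 0.928 to 1.05), and folds of 1.38 and 1.39, short of 1.54. The receptors of Sema5a and Sema5b are plexin-A1 and plexin-A3. Plxna1 had 24.9, 26.2 and 26.7 FPKM, and Plxna2 had 25.6, 24.1 and 23.2. Plxna4 had 786, 920 and 888 reads, and its interval lay above 1 against buffer (1.02 to 1.24) but included 1 against saline (0.877 to 1.06).

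The neuropilin genes diverged in sign at small size. Nrp1, a co-receptor for Sema3A and VEGF, had 1723, 1722 and 1535 reads after buffer, saline and STZ, and a count ratio of 0.889 against each control (0.830 to 0.953). Nrp2, which binds Sema3F, had 666, 672 and 785 reads and ratios of 1.18 (1.06 to 1.31) and 1.17 (1.05 to 1.29). In both genes the controls were nearly equal.

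In the Slit system, Slit2 did not go together with the receptor genes Robo1 and Robo2. Slit2 had 1405 reads after buffer, 1472 after saline and 1684 after STZ, a ratio of 1.20 against buffer (1.11 to 1.29) and 1.14 against saline (1.06 to 1.22). Slit1 was highest after saline, with 404, 591 and 458 reads. Its ratio of STZ against buffer was 1.13 (0.988 to 1.30). Against saline it was 0.773 (0.683 to 0.875), below 1 as for Robo1 and Robo2. Robo2, the main Slit receptor gene of ganglion cells, was the most abundant receptor of the family, with 21.7, 26.6 and 17.2 FPKM. As with Robo1, saline was the highest library and STZ the lowest, and the folds were 0.800 against buffer and 0.657 against saline, just outside the threshold. Robo2 was called lower against saline with TMM or median-of-ratios scaling, with CPM, or with a pseudocount of 0.1. Robo3, which counters Slit repulsion in axons before they cross the midline, had 1892, 1523 and 1934 reads. Its STZ and buffer values did not differ beyond counting error (0.957 to 1.09), and saline was the lowest.

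Of the netrin system, Ntn4, a laminin-binding netrin of basement membranes, had 403, 417 and 303 reads after buffer, saline and STZ and count ratios of 0.751 (0.644 to 0.873) and 0.725 (0.623 to 0.842). Dcc, the attractive netrin receptor gene that guides ganglion cell axons into the optic nerve, had 1579, 1449 and 1418 reads. Its interval against buffer was 0.834 to 0.964, and that against saline, 0.907 to 1.05, included 1. Dscam, which spaces retinal neurons of one type and binds netrin, had 1029, 1132 and 1073 reads and folds of 1.04 and 0.951. Among the repulsive Unc5 receptors, Unc5a and Unc5c were the abundant genes. Unc5a had 28.4, 27.3 and 24.0 FPKM, and Unc5c had 23.6, 21.0 and 19.8. Both had intervals below 1 against both controls, with ratios against buffer of 0.838 (0.787 to 0.892) and 0.849 (0.814 to 0.887). Unc5b, an endothelial Unc5 gene, had 217, 345 and 228 reads and was highest after saline. Unc5d had 236, 248 and 242 reads, and its 3 intervals included 1.

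Gap43 marks growing axons. It had 1947 reads after buffer, 1732 after saline and 2165 after STZ, so STZ was the highest and saline the lowest library. The count ratio was 1.11 against buffer (1.04 to 1.18) and 1.25 against saline (1.17 to 1.33), while saline against buffer was 0.890 (0.834 to 0.950). Its folds of 1.11 and 1.24 are short of the threshold.

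The members that stood apart in the saline library can be set beside genes of retinal position and of neighboring tissue. In saline against buffer, the count ratios furthest above 1 were those of Sema3c (2.05), Unc5b (1.59), Efnb2 (1.58), Ephb1 (1.48), Slit1 (1.46) and Efnb1 (1.42), and their intervals excluded 1. Of 15 genes of retinal position, 3 were called higher in saline than in buffer. They were Tbx5 with 150, 305 and 92 reads after buffer, saline and STZ, Bmp4 with 18, 102 and 9, and Aldh1a1 with 1904, 6838 and 1904. These 3 genes are known from dorsal retina, but other dorsal genes were close to 1 in saline against buffer, with folds of 1.08 for Tbx2 and 1.05 for Tbx3. The ventral genes did not go one way either, with folds of 0.930 for Vax2 and 1.23 for Aldh1a3, and the ventrotemporal regulator Foxd1 had 1.47. In STZ against buffer, 0 of the 15 were called, with a median log2 fold of -0.28. In STZ against saline, 5 were called lower, where 1.75% of all genes were, with a median of -0.26. Of 10 pigment epithelium and ciliary genes, 6 were called higher in saline than in buffer, and their reads summed to 763, 2883 and 853 over the list, with Rpe65 at 0, 2 and 2 reads. Pmel had 252, 940 and 240 reads. Of 13 lens genes, 9 were called higher in saline than in buffer, where 1.00% of all genes were. Their list summed to 326 reads after buffer, 789 after saline and 3685 after STZ. The part of dorsal, pigment, ciliary or lens tissue in the values of these 6 guidance genes was not tested. The comparison of STZ with buffer does not use the saline library, and in it Efnb2 and Ephb1 had folds of 0.771 and 0.878.

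**Figure D3:**
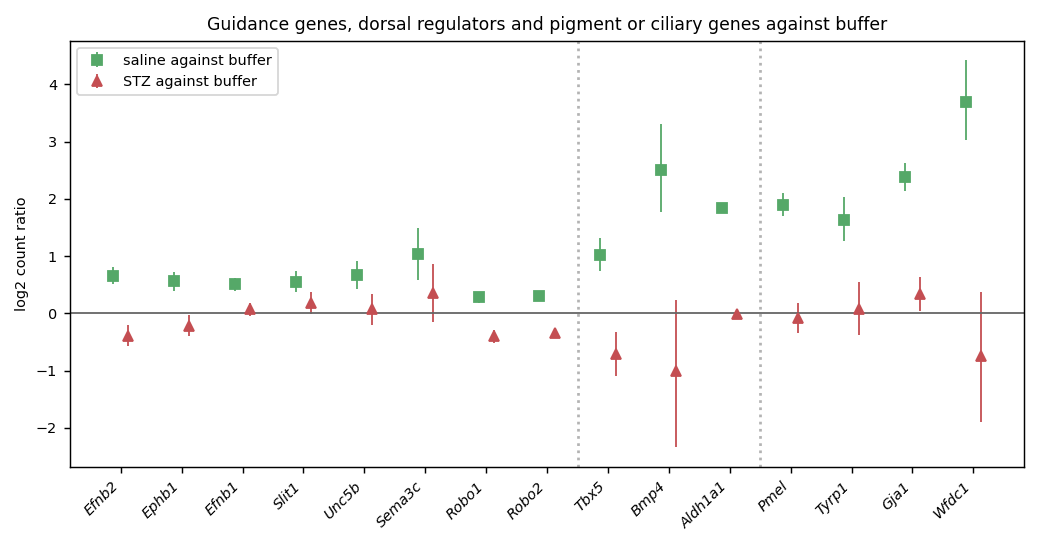
Log2 count ratio against buffer of 8 guidance genes, 3 dorsal genes and 4 pigment or ciliary genes (divided by dotted lines), for saline (square) and STZ (triangle), with 95% counting intervals. The genes were picked for this plot after their values were seen. All saline points lie above 0, from Robo1 and Robo2 to Wfdc1, while the STZ points lie near or below 0 for most genes.

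Other genes of the pathway, were taken from lists written by hand, and their calls are read against the shares over all genes given above. Of 30 further guidance genes, 1 was called higher and 0 lower in STZ against buffer, near the 2.25% and 1.04% of all genes, and 0 were called against saline. The gene called higher was Dscaml1, the paralog of Dscam, with 1043 reads after buffer, 1140 after saline and 1805 after STZ and folds of 1.64 and 1.51. Efna4, an ephrin-A gene, had 188, 172 and 120 reads and a fold of 0.674, just outside the threshold. Epha8, at 67.8 FPKM after buffer, and Ntng2, at 117, were the most abundant, with folds of 0.877 and 1.05. Of 34 cytoplasmic effectors, among them genes of collapsin response mediators, 0 were called in STZ against either control, which for so short a list is also near those shares. Their median log2 fold was 0.07 against each. Kalrn, the gene of the exchange factor kalirin, had the smallest fold of these, 0.667 against buffer, and Ablim1, an actin-binding protein gene, the largest, 1.33. Of 21 axon adhesion and growth genes, 0 were called against buffer, with medians of 0.08 and 0.12. Stmn2 had 3252, 2995 and 3842 reads, an order of the libraries like that of Gap43.

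Markers of several retinal cell types also differed between the libraries. Guidance genes are expressed in more than 1 of these cell types. Of 16 ganglion cell genes 0 were called, and their median log2 fold was 0.10 against buffer and 0.19 against saline, with Sncg at 118 FPKM after buffer and Atoh7 at 3, 3 and 1 reads. Of 14 progenitor genes, 3 were lower against both controls (Ccnd1, Lhx2 and Dll1), and the median was -0.36 against each. Of 13 endothelial genes, 3 were lower against both controls (Cdh5, Tie1 and Cldn5), the median was -0.38 and -0.52, and Cldn5 had 188, 154 and 37 reads. The summed endothelial reads were 14768, 16052 and 10824, of which most were Kdr, a gene also expressed by retinal progenitors. Of 9 Müller glia and astrocyte genes, 3 were lower against both controls (Pax2, Pdgfra and S100b), with medians of -0.35 and -0.26. That list pools 2 cell types and did not go one way. Against buffer, 2 of its folds were above 1, Glul (1.05) and Slc1a3 (1.04), and 7 were below 1, among them Rlbp1 (0.787). Of 7 mural genes, 2 were lower against both controls (Rgs5 and Acta2), with summed reads of 986, 953 and 648. Of 12 microglia genes, 9 were higher against both controls (Aif1, Cx3cr1, Csf1r, Tmem119, C1qa, C1qb, C1qc, Tyrobp and Trem2), with summed reads of 1487, 1829 and 4120. Of 13 lens genes, 7 were higher against both controls (Cryaa, Crygc, Crygd, Crygf, Cryba1, Cryba2 and Crybb1), and the list summed to 326, 789 and 3685 reads. Of 8 photoreceptor genes, 1 was higher against buffer (Rcvrn) and 2 against saline (Nr2e3 and Opn1sw), with medians of 0.20 and 0.29, while Otx2 and Prdm1 had folds of 0.874 and 0.859 against buffer. As a check of the labelled tissue, the photoreceptor gene Crx was at 384, 349 and 409 FPKM. Of 13 amacrine and horizontal cell genes 0 were called, with medians of 0.19 and 0.24. The part of these cells in the lower Ephb4, Efna1, Plxnd1 and Ntn4 and in the other values was not tested.

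**Figure D4:**
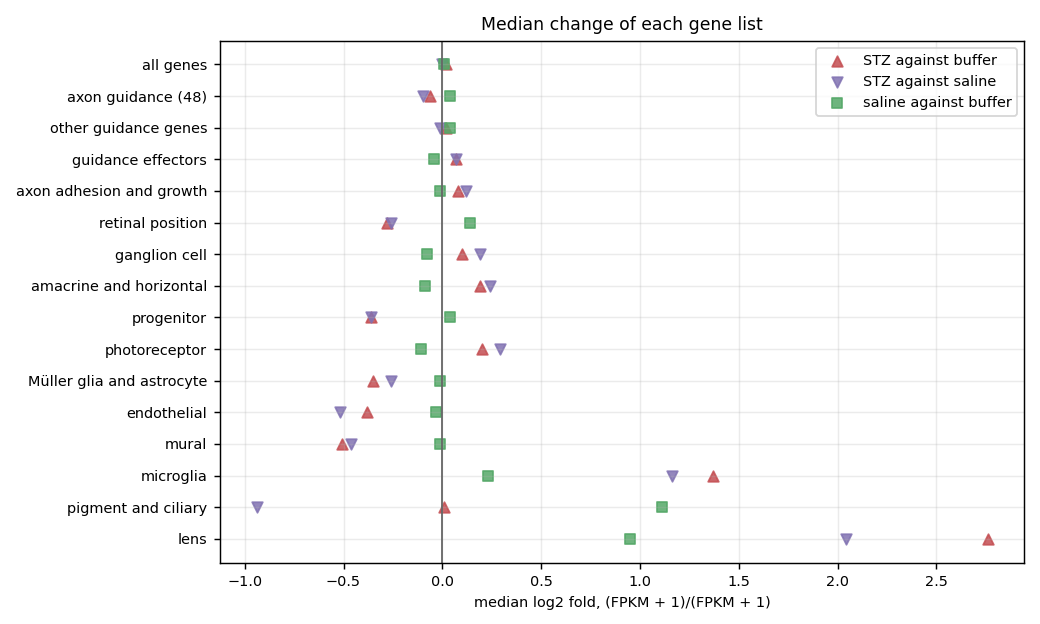
Median log2 fold, with (FPKM + 1)/(FPKM + 1) as the fold, of each gene list in the 3 comparisons (triangles up, STZ against buffer; triangles down, STZ against saline; squares, saline against buffer). The 48 guidance genes lie at -0.06, -0.10 and 0.04, and all genes at 0.02, 0.00 and 0.01. A median does not show how far single genes lie from it. Microglia and lens genes lie far right in both STZ comparisons.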

How the data were processed

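RNA of P4 rat retinas was sequenced in 3 libraries, 1 per condition. Per the study's methods and the submitters' processing notes, reads were checked with FastQC, trimmed and mapped with TopHat2 to rn6, and reads with several locations were dropped. The authors deposited FPKM from a custom R script, TPM, and an estimated count per gene. The deposited estimated counts are partly fractional (12.9% to 13.2% of values; 3 members) and were rounded before intervals were computed. How the counts were estimated is not given in the sources used here. The deposited TPM entered an alternative only. The tables per library and of the series held equal values (largest difference 0).

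The members, the gene lists and the tests were chosen with earlier results of these data known. All 48 members were accounted for. A member is given with its values if it passed the fold rule, if its intervals excluded 1 on the same side against both controls, if it was among the 2 highest in FPKM of its family, if it had under 10 counts in a library, or if it pairs with such a ligand or receptor. Every other member is given as well. Genes that are no members come from 4 pathway lists and 10 marker lists, of which 2 genes were not matched. Some marker genes of the progenitor, photoreceptor and microglia lists are not reported here and were left out of their counts, sums and medians. Of the listed genes, the rule names genes past the fold rule against both controls and those with the largest change. Others named from the lists were chosen after their values were seen.

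Folds, intervals and medians were computed with Python 3.11.15, numpy 2.4.6, pandas 2.3.3 and scipy 1.17.1, and drawn with matplotlib 3.10.9. The computation of folds and intervals was run on simulated counts with large set folds, counting error only and no spread between animals. That run checks the computation, not the results. Scaling factors came from edgeR 4.0.16 and DESeq2 1.42.0 in R 4.3.3. No count model was fitted, for want of replicates. Alternatives tried were thresholds of 0.5 and 2, a pseudocount of 0.1, a minimum mean of 10 counts, TMM and median-of-ratios scaling, CPM or TPM in place of FPKM, a count interval that excludes 1 beside the fold rule, and other controls (saline, or buffer and saline averaged). Promoter windows were read in the orientation of the gene: 1916 of 1916 overlapping windows on opposite strands were reverse complements.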

Additional observations from a re-analysis of the deposited data

How the results depend on the processing

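Weakly expressed members decided most changes. With a pseudocount of 0.1, 3 members were lower in STZ against buffer (Efna1, Ephb4 and Ntn1) and 2 against both controls (Efna1 and Ephb4). In STZ against saline 7 were lower (Efna1, Efnb2, Ephb1, Ephb4, Robo1, Robo2 and Unc5b) and 1 higher (Epha6). In saline against buffer 3 were higher. The all-gene counts rose too, out of 18425 genes. They were 831 lower in STZ against buffer, 1270 lower and 1265 higher against saline, and 1113 higher in saline against buffer. For both controls at once, all-gene counts were not computed under the alternatives. With CPM, Ephb4 was the 1 member lower against buffer (236 of all genes) and the 1 lower against both controls. Epha6 was then the 1 higher against saline (498 of all genes), and 2 were higher in saline against buffer (266 of all genes). With TPM, Ephb4 was again the 1 lower against buffer (304 of all genes) and the 1 against both controls. By TPM, 3 were higher in saline against buffer (350 of all genes). With thresholds of 0.5 and 2, Efnb2 was the 1 member lower against saline (85 of all genes), and 0 were higher in saline against buffer (72 of all genes). A pseudocount of 0.1 weighs less on low FPKM by construction. The cause of the other changes was not tested. Under the remaining alternatives (TMM, median-of-ratios, the count minimum and the interval), each fold-rule member count stayed within 1.5 times its main value. With TMM or median-of-ratios scaling, 5 were lower against saline, Robo2 being the added gene (336 of all genes under each). With CPM the 5 were the same (471 of all genes). Counts of intervals below or above 1 against both controls were not recomputed under these scalings. The median log2 fold of the members lay between -0.097 and -0.018 in STZ against buffer over the alternatives run for it. With saline as the control, 10 of the 48 folds changed to the other side of 1. No replicate could be left out.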

Other observations

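For some members the FPKM ratio and the count ratio differ, although both come from the same library. The gap was over 5% for 3 of the 48 genes in STZ against buffer (Epha4, Sema3a and Ntn1), for 7 against saline and for 5 in saline against buffer. Sema3a, named here after its values were seen, had 2.44 FPKM after buffer and 3.20 after STZ, a ratio of 1.31, from 291 and 334 reads, a count ratio of 1.15. Efna5 had a count ratio of 0.799 in saline against buffer and an FPKM ratio of 0.889. For Epha4 the order of the gap was the reverse, with a count ratio of 1.18 and an FPKM ratio of 1.10 in STZ against buffer. The transcript length used for each library is not given in the sources used here. The cause was not tested.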
